A study of Mus musculus with 21 samples.

Results

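Complement is a cascade of blood proteins that marks and lyses targets and recruits leukocytes, and 9 of its genes were followed here in inflammatory monocytes (IMs). They were chosen as the rows of the count table with the symbols Cfb, C3, C2, Cfp, C1qa, C1qb, C1qc, C3ar1 and C5ar1, which are 9 of the 23420 gene symbols in the table, and all 9 passed the filter on low counts in every comparison. RNA had been sequenced from 21 sorted samples in 5 groups. Tumor-infiltrating IMs (TIMs) came from primary tumors (n = 5) and lymph node metastases (n = 5) of the lung squamous carcinoma line KAL-LN2-E1 (LN2E1), implanted orthotopically in the lungs of FVB mice, and from lung metastases of the line LN4K1 in DBA2 mice that had received the cells through a vein (n = 5). Bone marrow IMs (BM IMs) came from naive, healthy FVB mice (n = 3, FvBn in the titles) and DBA2 mice (n = 3). No group carried an engineered allele or received a drug. The LN2E1 and LN4K1 models differ at once in host strain, cell line, route and tissue, whose parts cannot be told apart, and each model rests on 1 cell line. The ages of the individual mice and any pooling of mice are not given in the labels, and the study's methods call the repeats technical replicates, so that the p-values may measure technical spread alone.

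In the classical pathway, C1q, built from the chains encoded by C1qa, C1qb and C1qc, binds antibody or damaged surfaces and leads to the cleavage of C4 and C2. In the alternative pathway, complement factor B (Cfb) binds C3b, the large fragment of C3, to form the enzyme that cleaves further C3, and properdin (Cfp) stabilizes that enzyme. The small fragments C3a and C5a signal through the receptors encoded by C3ar1 and C5ar1 on myeloid cells, and macrophages are a well-known source of C1q outside the liver, the main source of most other components.

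Each library held between 80772922 and 101043568 counts, and levels are given as CPM, a gene's counts relative to the total of its library, scaled by TMM factors. The LN4K1 lung library of replicate 3 stood apart: a chi-square of its counts per degree of freedom against the other lung libraries lay between 413.0 and 820.4, whereas among the other 4 it lay between 43.6 and 237.4, and the lung values of the members are therefore also given without it. Monocyte markers (7 of 7 detected in each group) summed to between 38658 and 127233 CPM per library, most of it Lyz2 (group means between 34248 and 75541 CPM). Of the 7, 4 rose and 2 fell in primary tumor TIMs, 3 rose and 2 fell in lymph node TIMs, and 5 rose and 1 fell in lung TIMs. Over all genes tested, 33.3% rose and 28.6% fell in primary tumor TIMs, 20.2% and 17.2% in lymph node TIMs, and 13.9% and 11% in lung TIMs. Mean Ly6c2 was 3037 CPM in FVB BM IMs, against 1246 CPM in primary tumor and 1335 CPM in lymph node TIMs. It was 2595 CPM in DBA2 BM IMs and 1475 CPM in lung TIMs. Transcripts that mark other cells were counted too, and fewer cells of a type and less RNA per cell cannot be told apart in such samples. Macrophage markers summed to between 1529 and 2870 CPM in BM IMs and between 3642 and 7322 CPM in TIMs. Apoe alone had group means between 1101 and 4485 CPM. In primary tumor TIMs 9 of the 12 markers changed, 7 upward and 2 downward, where 61.9% of all genes changed. Fibroblast markers summed to between 363 and 1099 CPM in primary tumor TIMs, against at most 86.8 CPM in the other TIMs and at most 0.363 CPM in BM IMs. Of 5 squamous epithelial markers, Krt5, Krt6a and Trp63 reached no more than 0.292 CPM in any library and Krt14 no more than 2.49 CPM, and the general epithelial gene Epcam, the 1 marker of the list that could be tested in primary tumor TIMs, lay between 3.71 and 8.2 CPM there. The gate of the sort, CD45+ CD11b+ Ly6C high cells without Ly6G or Siglec-F, is meant to remove fibroblasts, epithelial cells and neutrophils.

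In TIMs, Cfb, C3ar1 and C5ar1 rose in all 3 tissues, and Cfp fell in all 3. C3 rose in primary tumor TIMs and fell in lung TIMs, and of the C1q chains C1qc alone passed the test, falling in lung TIMs. A gene was said to rise or fall at an adjusted p under 0.05 in edgeR's quasi-likelihood test, and called a differentially expressed gene (DEG) where it met the study's stricter thresholds, a log2 fold change beyond 1 in either direction with an adjusted p under 0.0001. In primary tumor TIMs against FVB BM IMs, 5 of the 9 genes changed (4 up, 1 down) where 61.9% of all 14569 genes tested did (33.3% up, 28.6% down), so that the share of changed genes was near that of the background. Of them 3, Cfb, C3ar1 and C5ar1, were DEGs that rose, a class that held 7.72% of all genes. In lymph node TIMs against the same BM IMs, 4 changed (3 up, 1 down) with a background of 37.4% (20.2% up, 17.2% down), and 3 were DEGs that rose, with a background of 4.01%. In LN4K1 lung TIMs against DBA2 BM IMs, 6 changed (3 up, 3 down) with a background of 24.9% (13.9% up, 11% down), and 2, Cfb and C3ar1, were DEGs that rose, with a background of 1.21%. The median log2 fold change of the 9 genes was 0.89, 0.59 and -0.79 in the 3 comparisons, beside 0.08, -0.04 and 0.03 over all genes. The first 2 comparisons share their BM IM libraries.

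**Figure D1:**
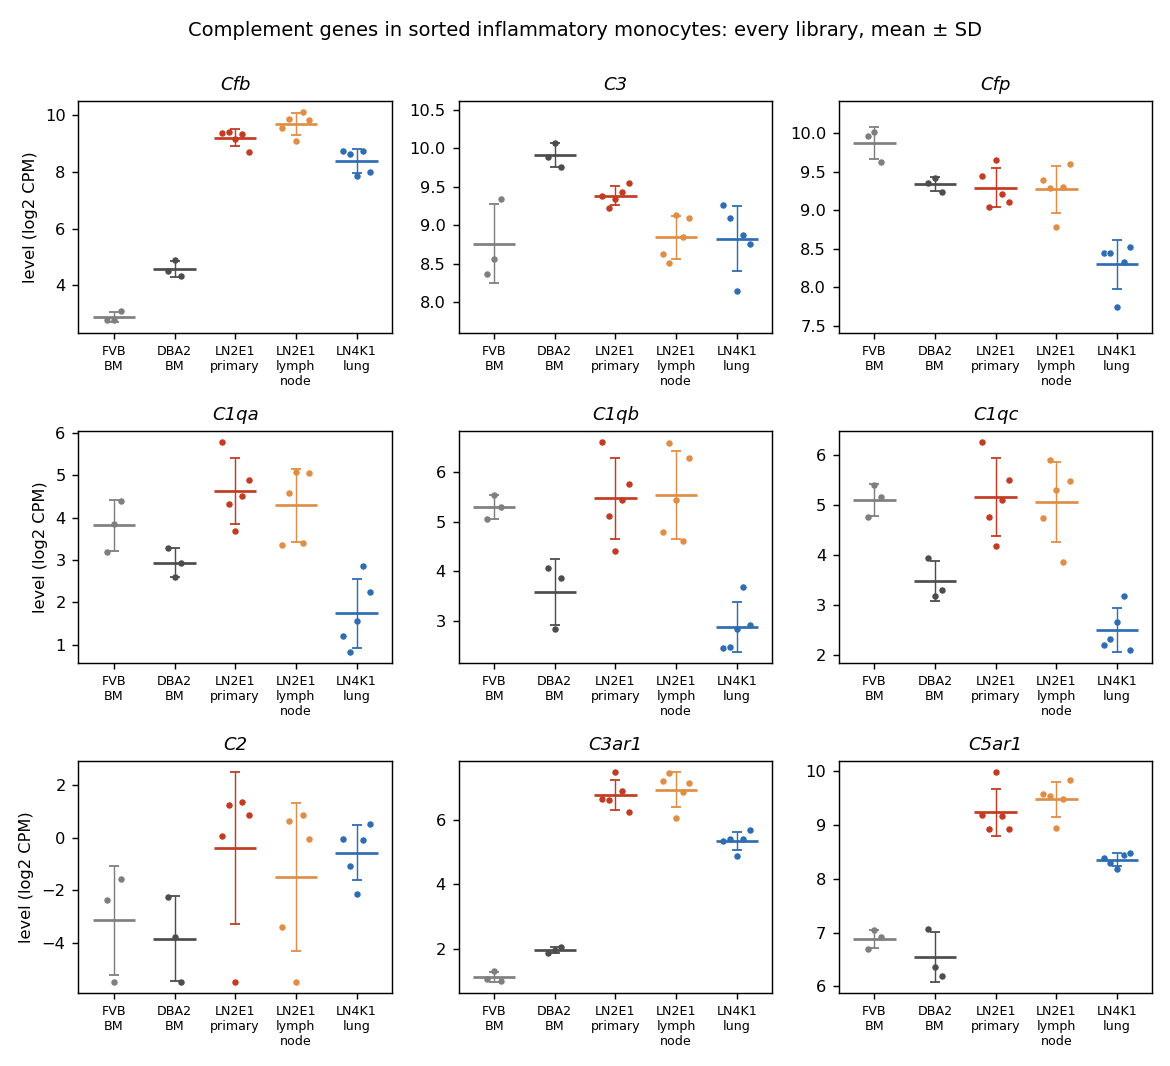
Levels (log2 CPM, y axis) of the 9 genes in each of the 21 libraries by group (x axis); points are libraries, horizontal bars group means and error bars SD, and each panel has its own axis, which does not start at 0. Cfb, C3ar1 and C5ar1 lie higher in every TIM library than in every BM IM library, while Cfp lies lowest in LN4K1 lung TIMs.

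Promoter windows from RefSeq (GRCm38.p6) were at hand for 6 of the 9 genes, and the 4 shown are those with a motif match. C3ar1 rose in every TIM group, C3 did not, and C1qb and C1qc moved with each other from library to library. C5ar1 also rose in every TIM group and Cfp fell in every one, and their windows, without a match, are not shown. The sequences are the bases before the RefSeq start, read on the gene's own strand, which is the minus strand for all 9 genes. Bases that GENCODE vM21 places inside the gene's first exon were left off, so that the C1qc window keeps 99 bases and the C3ar1 window 246 bases. Capitals mark matches to any of 6 short motifs searched on both strands. C3ar1 lies at chr6:122856162-122856407, C3 at chr17:57228137-57228386, C1qb at chr4:136886201-136886450 and C1qc at chr4:136893066-136893164.
C3ar1: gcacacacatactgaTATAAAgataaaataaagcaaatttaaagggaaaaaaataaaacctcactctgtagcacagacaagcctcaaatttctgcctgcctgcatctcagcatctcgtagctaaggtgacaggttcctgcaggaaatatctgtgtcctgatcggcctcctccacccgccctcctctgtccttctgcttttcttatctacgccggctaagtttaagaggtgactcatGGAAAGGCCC
C3: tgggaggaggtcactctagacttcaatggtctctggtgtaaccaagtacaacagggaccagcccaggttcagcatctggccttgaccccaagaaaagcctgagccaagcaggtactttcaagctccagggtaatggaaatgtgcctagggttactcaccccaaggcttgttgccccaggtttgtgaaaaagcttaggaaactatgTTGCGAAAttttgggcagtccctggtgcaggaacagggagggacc
C1qb: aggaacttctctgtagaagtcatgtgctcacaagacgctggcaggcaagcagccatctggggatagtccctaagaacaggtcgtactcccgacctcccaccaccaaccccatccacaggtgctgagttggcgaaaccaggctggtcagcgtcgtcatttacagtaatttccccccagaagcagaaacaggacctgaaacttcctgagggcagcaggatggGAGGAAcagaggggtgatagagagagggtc
C1qc: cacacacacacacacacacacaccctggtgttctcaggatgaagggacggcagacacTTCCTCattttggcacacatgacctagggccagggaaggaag

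The motifs were the interferon-stimulated response element GAAANNGAAA, the gamma-activated site TTCNNNGAA, the kappa B site GGGNNTTNCC, the C/EBP site TTGCNNAA, the PU.1 core GAGGAA and the TATA box TATAAA. All 6 windows were searched over 250 bases. C3ar1 held a kappa B match on the opposite strand from base -14 relative to the start, a motif present in 4.11% of all 32544 promoter windows of that length, and a TATA box from base -235 (12.3% of windows). C3 held a C/EBP match from base -45 (9.58% of windows). C1qb and C1qc each held a PU.1 core, from base -30 on the gene's strand and from base -193 on the opposite strand, and 23.4% of all windows held one. No match to the 6 motifs was found in the windows of C5ar1 and Cfp, none of the 6 windows held the interferon-stimulated response element (2.98% of windows) or the gamma-activated site (7.04%), and no matches overlapped. A match describes the letters and is not a site shown to be bound.

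Cfb, on chromosome 17 (34856374-34862518, GRCm38, 17 merged exons), encodes the protease of the alternative pathway, and its level separated TIMs from BM IMs completely. It stood at 6.80, 6.92 and 8.50 CPM in the 3 FVB BM IM libraries and at 23, 29.7 and 20 CPM in the 3 DBA2 BM IM libraries. The 5 primary tumor libraries held 660, 674, 574, 647 and 409 CPM, and the 5 lymph node libraries held 747, 932, 546, 1112 and 919 CPM. The lung TIM libraries lay lower, at 422, 396, 228, 427 and 258 CPM, yet the lowest of all TIM libraries still held many times the highest BM IM level. The log2 fold change was 6.31 in primary tumor TIMs (SE 0.23, adjusted p = 1.02e-07) and 6.85 in lymph node TIMs (SE 0.29, adjusted p = 3.03e-07). In LN4K1 lung TIMs it was 3.78 (SE 0.30, adjusted p = 2.1e-05), and 3.90 without replicate 3. Cfb was no longer a DEG in lung TIMs, though it still rose, in each fit that left out a DBA2 BM IM library, with adjusted p between 0.0002 and 0.000347. Exons of Gm20547, a gene model on the same strand that runs across Cfb and C2, overlap those of both genes, and how such reads were assigned is not given in the sources used here.

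C3, on chromosome 17 (57203970-57228136, 42 merged exons), encodes the protein on which all pathways converge, and its level did not follow that of Cfb. It stood at 331, 380 and 650 CPM in FVB BM IMs and at 949, 1074 and 869 CPM in DBA2 BM IMs. Primary tumor TIMs held 667, 596, 648, 691 and 751 CPM, lymph node TIMs 396, 364, 561, 462 and 548 CPM, and lung TIMs 612, 546, 283, 472 and 434 CPM. All lung TIM libraries lay under all DBA2 BM IM libraries, whereas primary tumor and lymph node TIM libraries overlapped those of FVB BM IMs, among which replicate 3 was the highest. C3 fell in lung TIMs by 1.10 on the log2 scale (SE 0.22, adjusted p = 0.00608), with a value of -0.96 without replicate 3. It rose in primary tumor TIMs by 0.54 (SE 0.21, adjusted p = 0.0432), a call that was lost in 6 of the 8 fits that left out 1 library, with adjusted p up to 0.113 (without FVB BM IM replicate 2). Without FVB BM IM replicate 3, the highest of its group, the value was 0.91 (adjusted p = 0.000107). C3 did not pass the test in lymph node TIMs (log2 fold change 0.04, SE 0.24, adjusted p = 0.907).

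Properdin, encoded by Cfp on chromosome X (20925454-20931555, 9 merged exons), went the opposite way to factor B. FVB BM IMs held 997, 1037 and 794 CPM and DBA2 BM IMs 652, 683 and 603 CPM. The level was 701, 527, 804, 590 and 553 CPM in primary tumor TIMs. Lymph node TIMs held 669, 627, 439, 632 and 776 CPM and lung TIMs 349, 347, 215, 321 and 366 CPM. Lymph node and lung TIM libraries all lay under the BM IM libraries of their strain, and 1 primary tumor library (replicate 3) overlapped them. Cfp fell by 0.58 on the log2 scale in primary tumor TIMs (SE 0.15, adjusted p = 0.00759), by 0.58 in lymph node TIMs (SE 0.17, adjusted p = 0.0235) and by 1.08 in lung TIMs (SE 0.17, adjusted p = 0.00152). The lung value was -0.96 without replicate 3, and the lymph node call was lost without FVB BM IM replicate 1 (adjusted p = 0.0855) or replicate 2 (adjusted p = 0.101). Neutrophils also make properdin, and although the gate leaves out Ly6G+ cells, the summed level of 9 neutrophil markers moved in the same direction: between 4430 and 5358 CPM in FVB BM IMs and between 3016 and 3771 CPM in DBA2 BM IMs, against between 574 and 1837 CPM in TIMs. Of these markers, 5 fell and 3 rose in primary tumor TIMs. In lymph node TIMs 6 fell and 2 rose, and in lung TIMs 6 fell and 1 rose. Over all genes 28.6%, 17.2% and 11% fell in the same order, and 33.3%, 20.2% and 13.9% rose. Camp, Elane, Ltf, Mpo and Ngp fell in every tissue, with Camp at 3 counts or fewer in all lymph node libraries. The markers that rose were Csf3r, Cxcr2 and Mmp8 in primary tumor TIMs, Csf3r and Cxcr2 in lymph node TIMs, and Mmp8 in lung TIMs. Mean Mpo was 1379 CPM in FVB BM IMs and 2.35 CPM in primary tumor TIMs, and mean Csf3r was 273 and 567 CPM. As the markers went both ways, their sum does not show whether TIM samples held fewer neutrophils. The part of neutrophils in the Cfp result was not tested.

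The balance between factor B and C3 transcripts, taken per kilobase of merged exons within each library, moved from C3 toward Cfb in TIMs. The ratio of Cfb to C3 lay between 0.0238 and 0.0373 in FVB BM IMs and between 0.042 and 0.0504 in DBA2 BM IMs. It lay between 0.992 and 2.06 in primary tumor TIMs, between 1.77 and 4.67 in lymph node TIMs and between 1.08 and 1.64 in lung TIMs. In every TIM library but 1 (primary tumor replicate 5, with 0.992) Cfb thus exceeded C3 per kilobase, whereas in BM IM libraries it stood at 0.0504 of the C3 level or less.

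**Figure D2:**
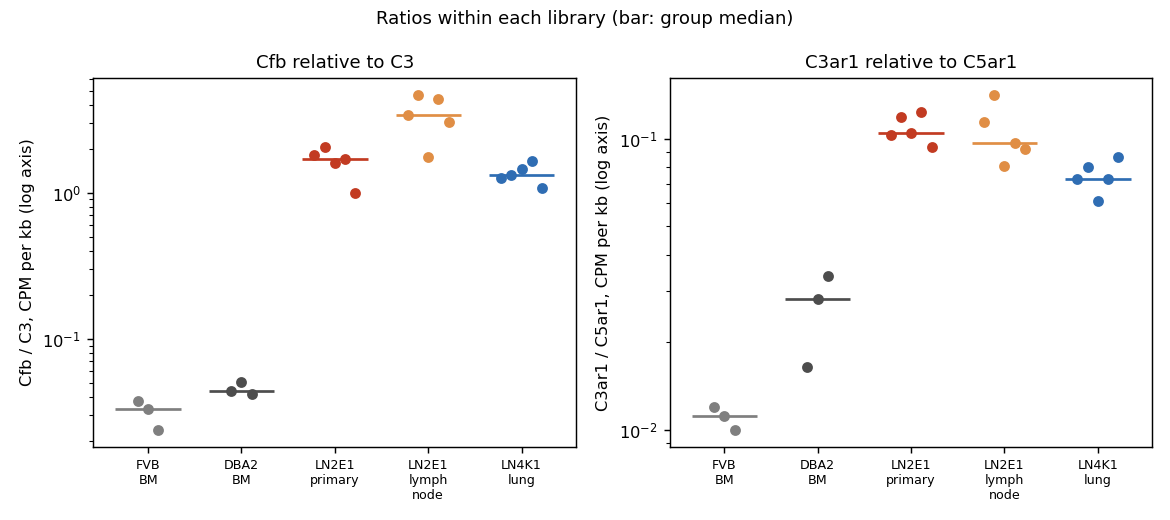
Ratio of Cfb to C3 (left) and of C3ar1 to C5ar1 (right) per kilobase of merged exons (y axes, log scale) in each of the 21 libraries by group (x axes); points are libraries and bars group medians. Cfb to C3 runs from at most 0.0504 in BM IMs to at least 0.992 in TIMs, and C3ar1 to C5ar1 from at most 0.0338 to at least 0.0608.

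C3ar1 and C5ar1 encode the receptors for C3a and C5a, and both rose in all TIM groups, C3ar1 from a low level and C5ar1 from a higher one. C3ar1, on chromosome 6 (122847138-122856161, 2 merged exons), stood at 2.08, 2.47 and 2.01 CPM in FVB BM IMs and at 3.68, 3.87 and 4.15 CPM in DBA2 BM IMs, on between 182 and 390 counts. Primary tumor TIMs held 100, 96.7, 179, 119 and 76.2 CPM, lymph node TIMs 146, 175, 66.1, 116 and 140 CPM and lung TIMs 40.5, 42.1, 29.6, 42.6 and 51.8 CPM. The groups were fully apart. The log2 fold change was 5.70 in primary tumor TIMs (SE 0.33, adjusted p = 9.76e-07), 5.89 in lymph node TIMs (SE 0.36, adjusted p = 1.9e-06) and 3.34 in lung TIMs (SE 0.21, adjusted p = 5.33e-06), the last being 3.44 without replicate 3. The adjusted p in lung TIMs lay just past the DEG threshold, between 0.000102 and 0.000105, when any 1 DBA2 BM IM library was left out.

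C5ar1, on chromosome 7 (16246743-16259540, 3 merged exons), stood at 104, 132 and 120 CPM in FVB BM IMs and at 134, 81.9 and 73.3 CPM in DBA2 BM IMs. It reached 579, 486, 1019, 577 and 486 CPM in primary tumor TIMs. Lymph node TIMs held 766, 741, 490, 719 and 907 CPM and lung TIMs 332, 314, 290, 349 and 357 CPM. Every TIM library exceeded every BM IM library, and primary tumor replicate 3 was the highest of all for C5ar1 and also for C3ar1. The log2 fold change was 2.39 in primary tumor TIMs (SE 0.27, adjusted p = 5.43e-05) and 2.62 in lymph node TIMs (SE 0.20, adjusted p = 8.06e-06), where C5ar1 was a DEG. In lung TIMs it was 1.71 (SE 0.20, adjusted p = 0.000281), which passed the test but not the DEG threshold, and 1.75 without replicate 3. Without DBA2 BM IM replicate 1, the highest of its group, C5ar1 was a DEG there too (2.02, adjusted p = 8.47e-05). In primary tumor TIMs the DEG call was kept when replicate 3 was left out (log2 fold change 2.15, adjusted p = 2.9e-06) and lost, with adjusted p between 0.000108 and 0.000623, when any other library was left out. In lymph node TIMs it was lost without FVB BM IM replicate 1 alone (adjusted p = 0.0001, at the threshold).

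The receptors did not rise equally. Per kilobase and within each library, C3ar1 stood at between 0.01 and 0.0119 of the C5ar1 level in FVB BM IMs and between 0.0164 and 0.0338 in DBA2 BM IMs. The ratio lay between 0.0936 and 0.123 in primary tumor TIMs, between 0.0806 and 0.141 in lymph node TIMs and between 0.0608 and 0.0867 in lung TIMs. C5ar1 remained the more abundant receptor transcript in all 21 libraries, and the TIM and BM IM ratios did not overlap.

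**Figure D3:**
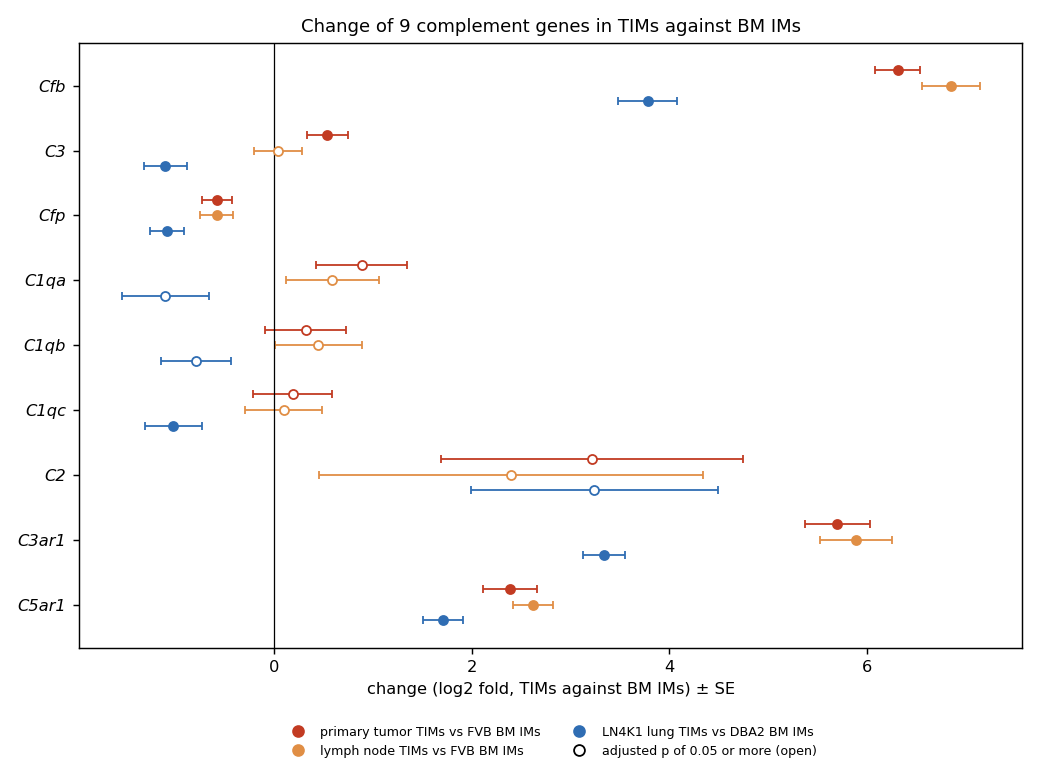
Change (log2 fold, TIMs against BM IMs, x axis) of the 9 genes (y axis) in the 3 comparisons; error bars are SE, filled points have an adjusted p under 0.05 and open points do not. Cfb (6.31, 6.85 and 3.78), C3ar1 and C5ar1 lie to the right in all 3, Cfp to the left in all 3, and the open points of C2 have the widest bars.

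The C1q chains, whose genes lie side by side on chromosome 4, spread widely among the TIM libraries of the LN2E1 model, around the BM IM level. C1qa spans 136895917-136898803, C1qb 136880129-136886187 and C1qc 136889804-136893065, each with 3 merged exons. C1qb stood at 33.4, 46.7 and 39.0 CPM in FVB BM IMs, at 97.9, 34.8, 21.2, 43.2 and 54.2 CPM in primary tumor TIMs and at 27.7, 96.6, 43.1, 24.2 and 77.9 CPM in lymph node TIMs. The TIM libraries thus lay on both sides of the BM IM libraries. In the DBA2 strain all levels were lower: C1qb stood at 16.6, 7.09 and 14.6 CPM in BM IMs and at 5.46, 5.55, 7.10, 12.9 and 7.50 CPM in lung TIMs.

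C1qc stood at 26.9, 41.9 and 35.5 CPM in FVB BM IMs, 76.4, 27.2, 18.1, 34.2 and 44.9 CPM in primary tumor TIMs and 26.7, 59.5, 39.3, 14.4 and 44.6 CPM in lymph node TIMs. In the DBA2 strain it stood at 15.2, 9.02 and 9.83 CPM in BM IMs and at 4.53, 4.99, 6.31, 8.99 and 4.27 CPM in lung TIMs, all 5 of which lay under the BM IM libraries. Per kilobase of merged exons, C1qb had the highest mean of the chains in all 5 groups, in FVB BM IMs 36.5 CPM per kilobase ± 6.12 (SD, n = 3) beside 14.3 ± 5.75 for C1qa and 18 ± 3.89 for C1qc. C1qa ranged from 9.15 to 21.1 CPM in FVB BM IMs, from 12.8 to 55.2 CPM in primary tumor TIMs (median 22.8) and from 10.2 to 33.9 CPM in lymph node TIMs (median 24). It ranged from 6.02 to 9.79 CPM in DBA2 BM IMs and from 1.76 to 7.29 CPM in lung TIMs (median 2.95), and these groups overlapped.

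None of the chains passed the test in the LN2E1 model. In primary tumor TIMs the log2 fold changes were 0.89 for C1qa (SE 0.46, adjusted p = 0.118), 0.32 for C1qb (SE 0.41, adjusted p = 0.522) and 0.19 for C1qc (SE 0.40, adjusted p = 0.707), and in lymph node TIMs they were 0.59, 0.45 and 0.10. In primary tumor TIMs the highest library, replicate 1, set the sign for C1qb and C1qc, whose values were -0.06 and -0.18 without it, and C1qa passed without replicate 3, the lowest (1.07, adjusted p = 0.0455). In lung TIMs, C1qc fell by 1.02 on the log2 scale (SE 0.29, adjusted p = 0.0305). The values were -1.10 for C1qa (SE 0.44, adjusted p = 0.0968; -1.02 without replicate 3) and -0.79 for C1qb (SE 0.35, adjusted p = 0.135; -0.76 without replicate 3). Without lung replicate 3 the C1qc value was -1.05 (adjusted p = 0.0228), and the C1qc call was lost without any of 5 other libraries, with adjusted p between 0.0636 and 0.145 (DBA2 BM IM replicates 1 and 3, lung replicates 1, 2 and 5). Without lung replicate 4, the highest for each chain, C1qa (-1.48, adjusted p = 0.0225) and C1qb (-1.06, adjusted p = 0.0422) passed too. Among 12 macrophage markers, 5 rose and 1 fell in lung TIMs, where 13.9% of all genes rose and 11% fell. Their summed level lay between 5608 and 7322 CPM there, against between 1529 and 2870 CPM in DBA2 BM IMs. Apoe made up much of it, with a mean of 4485 CPM in lung TIMs and 1101 CPM in DBA2 BM IMs. Gpnmb lay at 3 counts or fewer in all DBA2 BM IM libraries. The part of macrophages in the C1q values was not tested.

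The chains moved together from library to library. Over the 21 libraries the Pearson correlation of log2 CPM was 0.98 between C1qb and C1qc, 0.94 between C1qa and C1qb and 0.93 between C1qa and C1qc, and after the group means were taken away it was 0.91, 0.83 and 0.79. These are descriptions over libraries that share a sort and a preparation within each group. Per kilobase, C1qc stood at between 0.32 and 0.717 of C1qb across all libraries, and C1qa at between 0.259 and 0.887, with the narrowest range for C1qa in primary tumor TIMs, between 0.553 and 0.633.

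**Figure D4:**
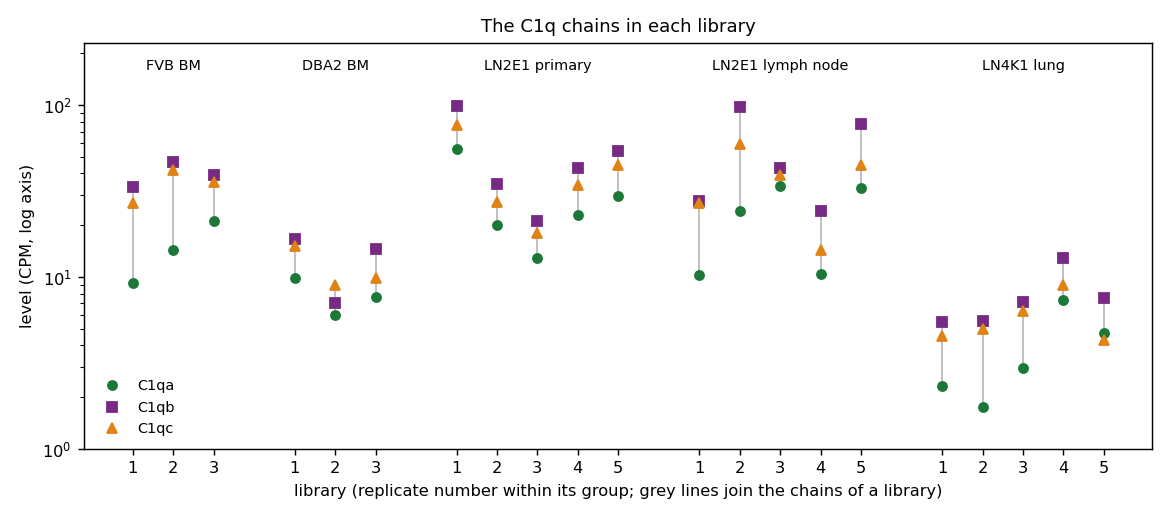
Levels (CPM, y axis, log scale) of C1qa, C1qb and C1qc in each of the 21 libraries (x axis, replicate number within its group); grey lines join the chains of 1 library. The chains go up and down together, C1qb between 5.46 CPM in a lung TIM library and 97.9 CPM in a primary tumor TIM library.

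C2, on chromosome 17 (34862604-34898265, 23 merged exons), encodes the classical pathway protease, the counterpart of factor B, and hardly any of its transcript was counted. Libraries held between 0 and 35 counts in BM IMs, between 0 and 233 counts in LN2E1 TIMs and between 15 and 128 counts in lung TIMs, at most 2.57 CPM. It stood at 0 counts in 1 FVB BM IM library, 1 DBA2 BM IM library, 1 primary tumor library and 1 lymph node library, and 0 counts allow up to 3 counts in such a library, by counting error alone. All lung TIM libraries lay above all DBA2 BM IM libraries in CPM, the nearest at 0.203 against 0.187 CPM, and the LN2E1 groups overlapped with FVB BM IMs. The log2 fold changes of 3.22 (SE 1.53, adjusted p = 0.0938), 2.40 (SE 1.94, adjusted p = 0.375) and 3.24 (SE 1.25, adjusted p = 0.0908) in primary tumor, lymph node and lung TIMs did not pass the test. C2 passed when lung replicate 3 was left out (adjusted p = 0.0337) and when primary tumor replicate 3, at 0 counts, was left out (adjusted p = 0.0149). Besides Gm20547, Zbtb12 on the opposite strand shares exon bases with C2, and the libraries carried no strand.

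Set side by side per kilobase of merged exons, the genes kept some of their order and changed the rest. In FVB BM IMs Cfp led with a mean of 543 CPM per kilobase ± 75 (SD, n = 3), followed by C3 (88.2 ± 33.3), C5ar1 (46.1 ± 5.42) and C1qb (36.5 ± 6.12), with Cfb (2.62 ± 0.336), C3ar1 (0.508 ± 0.0573) and C2 (0.0419 ± 0.0408) at the end. In DBA2 BM IMs the same 3 genes led, Cfp at 372 ± 23.3, C3 at 187 ± 20.1 and C5ar1 at 37.5 ± 12.8 (n = 3). In lymph node TIMs, Cfp (362 ± 70.3), Cfb (301 ± 75.7) and C5ar1 (282 ± 58.5, n = 5) had overlapping ranges, all above that of C3 at 90.6 ± 17.2. Primary tumor TIMs had Cfp at 366 ± 66.5, C5ar1 at 245 ± 86.6, Cfb at 210 ± 38.8 and C3 at 130 ± 11.1 (n = 5), each gene overlapping in range with the next. Lung TIMs had Cfp at 184 ± 35, C5ar1 at 128 ± 10.5, Cfb at 123 ± 33.7 and C3 at 91.3 ± 24.2 (n = 5), and here too each gene overlapped in range with the next. C2 was last in all groups, and C3ar1 moved from next to last in both BM IM groups to a mean of 26.5 ± 9.17 in primary tumor TIMs, within the range of the C1q chains.

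Lymph node and primary tumor TIMs of the LN2E1 model differed little in these genes. C3 was lower in lymph node TIMs by 0.51 on the log2 scale (SE 0.13, adjusted p = 0.0247), and it was the 1 gene of 9 that passed, with a background of 11.7%. Its libraries did not overlap, between 364 and 561 CPM against between 596 and 751 CPM, although the call was lost without primary tumor replicate 4 (adjusted p = 0.0629) or replicate 5 (adjusted p = 0.0645). Cfb was at a log2 difference of 0.53 (SE 0.19, adjusted p = 0.0957), and it passed when lymph node replicate 3, the lowest for Cfb, was left out (0.65, adjusted p = 0.0216). C3ar1 (0.18, SE 0.27, adjusted p = 0.723) and C5ar1 (0.22, SE 0.22, adjusted p = 0.588) did not pass.

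BM IMs of naive mice differed between the 2 strains: 6 of the 9 genes passed, with a background of 21.1%. The DBA2 libraries also enter the comparison with lung TIMs and the FVB libraries those with LN2E1 TIMs. Cfb was higher in DBA2 by 1.73 on the log2 scale (SE 0.20, adjusted p = 0.00111), C3 by 1.10 (SE 0.24, adjusted p = 0.0168) and C3ar1 by 0.86 (SE 0.26, adjusted p = 0.0494), while C1qb was lower, at -1.61 (SE 0.30, adjusted p = 0.00851), as were C1qc at -1.59 (SE 0.25, adjusted p = 0.00401) and Cfp at -0.52 (SE 0.11, adjusted p = 0.0157). For all 6, already picked by the test on these libraries, the libraries of the strains did not overlap. The share of all genes without overlap was not counted. The count was 3 when FVB BM IM replicate 2 was left out. C3 lost its call without FVB BM IM replicate 2 or DBA2 BM IM replicate 2, Cfp without FVB BM IM replicate 1 or 2 or DBA2 BM IM replicate 3, and C3ar1 lost its call in each of the 6 fits without 1 library, with adjusted p between 0.0631 and 0.143.

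The change in primary tumor TIMs exceeded that in LN4K1 lung TIMs for 4 of the 9 genes, in a test of the difference itself. That test passed for 26.5% of all genes in either direction, and for 2008 of 15182 in this direction. The difference was 2.55 on the log2 scale for Cfb (SE 0.33, adjusted p = 0.00018) and 2.37 for C3ar1 (SE 0.33, adjusted p = 0.000288), genes that rose in both models. For C3 it was 1.66 (SE 0.33, adjusted p = 0.00266) and for C1qa 2.01 (SE 0.67, adjusted p = 0.0375), with the C1qa call lost in 8 of 16 fits without 1 library, among them the fit without lung replicate 3 (adjusted p = 0.0502). C5ar1 (0.71, SE 0.33, adjusted p = 0.124), Cfp (0.51, SE 0.24, adjusted p = 0.134), C1qb (1.13, SE 0.58, adjusted p = 0.161) and C1qc (1.23, SE 0.53, adjusted p = 0.0954) did not pass. Without lung replicate 3 the differences for Cfb, C3 and C3ar1 were 2.42, 1.51 and 2.27 (adjusted p = 7.71e-05, 0.00103 and 0.000177). For Cfb, C3 and C3ar1 the starting level in DBA2 BM IMs was the higher one.

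Over the 21 libraries Cfb and C3ar1 were the most alike of the members from different loci, with a correlation of log2 CPM of 0.98, followed by C3ar1 with C5ar1 (0.96) and Cfb with C5ar1 (0.92). After the group means were taken away the values were 0.41, 0.71 and 0.28. Cfp correlated with C3ar1 at -0.29 over all libraries and at 0.78 within groups. In a search of the 8008 genes other than the members whose mean log2 CPM exceeded 3, those most like Cfb were Gbp7 (0.994), Gbp3 (0.989), Lgmn (0.988), Csrnp1 and Igtp (0.987 each). Those most like C3ar1 were Rhov (0.987), Havcr2 (0.986), Fcgr4 (0.982), Il1r2 and Upp1 (0.981 each), and those most like C5ar1 were Dok2 (0.984), Gm14085 (0.982), Antxr2 (0.979), Rhov (0.979) and Slc28a2 (0.978). Cd81 led for all C1q chains once the other chains were left aside (0.914, 0.914 and 0.910), Ppp2r4 for C3 (0.956) and Tssc1 for Cfp (0.932), and no gene came above 0.642 for C2. The groups lie far apart in these genes, and the libraries of a group share a sort and a preparation.

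Around these genes, 52 other complement genes were in the table. Of those tested, 28 of 37 changed in primary tumor TIMs (25 up, 3 down), 21 of 32 in lymph node TIMs (17 up, 4 down) and 12 of 30 in lung TIMs (11 up, 1 down; 16 were called without lung replicate 3), beside 61.9%, 37.4% and 24.9% of all genes (upward 33.3%, 20.2% and 13.9%). The medians were 1.97, 1.46 and 0.57 on the log2 scale, beside 0.08, -0.04 and 0.03 over all genes. By role, in primary tumor TIMs 6 of 7 classical pathway genes rose, 2 of 5 lectin pathway genes rose and 2 fell, 4 of 5 terminal pathway genes rose, 6 of 11 regulators rose, and 7 of 9 receptors rose and 1 fell. The terminal genes that rose were low: Hc, C6, C7 and C8a reached at most 1.8, 1.65, 0.694 and 0.634 CPM there. They held 1 count or fewer in every FVB BM IM library, and the C7 libraries overlapped. C8g, the other terminal gene tested, did not pass (adjusted p = 0.0583). In lung TIMs 3 of 7 classical pathway genes, 1 of 3 lectin pathway genes, 0 of 2 terminal pathway genes, 4 of 10 regulators and 3 of 8 receptors rose, and 1 lectin pathway gene fell. In lymph node TIMs the genes that rose were 4 of 7, 1 of 3, 1 of 2, 5 of 10 and 6 of 9 in the same order, with 2 lectin pathway genes, 1 regulator and 1 receptor falling. The terminal gene that rose there was C8a, at between 0 and 3.78 CPM, and its libraries overlapped those of FVB BM IMs. The alternative pathway list held 1 gene, which was tested in lymph node TIMs alone and did not pass. The lectin pathway gene that rose in lymph node and lung TIMs was Colec12 (2.12 and 1.61 on the log2 scale). The receptor list was broad and held Calr, Lrp1, Cd93 and Itgam, the last also counted among the monocyte markers.

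Among the classical components, C4b, which encodes C4, the substrate of the C1 proteases, lay between 0 and 2.22 CPM in BM IMs, between 64.4 and 148 CPM in primary tumor TIMs, between 68.7 and 143 CPM in lymph node TIMs and between 10.5 and 42 CPM in lung TIMs. Its log2 fold changes were 9.66 (SE 0.81), 9.85 (SE 0.86) and 4.38 (SE 0.61), with adjusted p = 1.13e-05, 1.82e-05 and 0.000723. C4a, a near-identical copy, rose by 5.65, 5.92 and 2.70, and reads of the pair may have been split between them, so that the division is uncertain. C1s, the C1 protease that cleaves C4, lay at 1 count or fewer in the FVB BM IM libraries and between 7.61 and 30.3 CPM in primary tumor TIMs. Its mean there, 17.2 CPM, was at least 502-fold higher than the level of 3 counts in 1 FVB BM IM library (0.0343 CPM), and its mean of 2.25 CPM in lymph node TIMs, where libraries held between 1.37 and 5.07 CPM, was at least 65.7-fold higher by the same limit. In lung TIMs it lay between 0.289 and 2.4 CPM and in DBA2 BM IMs at most at 0.0425 CPM.

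Of the lectin pathway, the ficolin gene Fcnb fell in all 3, by 4.48, 4.42 and 3.54 on the log2 scale (adjusted p = 1.69e-07, 9.11e-07 and 6.97e-06), from between 72.2 and 114 CPM in BM IMs to between 2.88 and 13.8 CPM in TIMs. Fcna fell by 4.88 in primary tumor TIMs and by 3.98 in lymph node TIMs, and was at -0.45 (adjusted p = 0.822) in lung TIMs. Among the receptors, Itgax, which encodes the alpha chain of complement receptor 4, rose by 6.13, 6.51 and 2.53 (adjusted p = 5.88e-06, 1.57e-05 and 0.00655). Of 6 dendritic cell markers, 4 rose in primary tumor TIMs, 3 rose in lymph node TIMs, and 1 rose and 1 fell in lung TIMs, where 33.3%, 20.2% and 13.9% of all genes rose. The part of such cells in the Itgax change was not tested. Without lung replicate 3 the lung values were -3.42 for Fcnb, -0.17 for Fcna and 2.63 for Itgax, with the same calls, and those of C4b and C4a were 4.59 and 2.95.

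Of the regulators, Cd59a, which blocks the lytic pore, rose in all 3, by 2.71, 4.33 and 5.05 (adjusted p = 0.00446, 0.0038 and 0.0497). The lung value started from few counts, with a mean of 0.099 CPM and at most 26 counts per library in DBA2 BM IMs. By level, lung TIMs were the lowest TIM group for Cd59a: a mean of 3.46 CPM, beside 13.9 (primary tumor) and 41.8 (lymph node). FVB BM IMs averaged 2.07 CPM. Cd59a libraries overlapped between lung TIMs and DBA2 BM IMs. Serping1, the inhibitor of the C1 proteases, rose by 5.10 in primary tumor TIMs (adjusted p = 0.00147), with values of 2.77 (adjusted p = 0.141) in lymph node and 2.93 (adjusted p = 0.174) in lung TIMs. Clu, which encodes the fluid-phase regulator clusterin, rose by 4.13 in primary tumor TIMs (adjusted p = 0.000497), with -1.17 (adjusted p = 0.522) and 4.07 (adjusted p = 0.116) in the other comparisons. Without lung replicate 3, Clu passed in lung TIMs (4.40, adjusted p = 0.0115), Serping1 was at 3.21 (adjusted p = 0.0709) and Cd59a at 5.38 (adjusted p = 0.00353). Fibroblasts and epithelia are known sources of C1s, Serping1 and Clu. All 5 fibroblast markers rose in primary tumor TIMs, 4 of 4 tested in lymph node TIMs and 2 of 4 in lung TIMs, with summed levels between 363 and 1099, between 0.836 and 86.8 and between 1.3 and 42.5 CPM. Over all genes 33.3%, 20.2% and 13.9% rose in the same order. Col1a1, Col3a1, Dcn and Pdgfra were at 3 counts or fewer in all FVB BM IM libraries. All 4 lung epithelial markers rose in primary tumor and lung TIMs, to between 184 and 881 CPM and between 7.58 and 118 CPM, while in lymph node TIMs 1 of 2 tested rose, Cdh1, at between 8.11 and 135 CPM, a gene common to epithelia. The lung-specific Sftpc, Sftpa1 and Scgb1a1 reached at most 0.568, 0.238 and 0.981 CPM in lymph node TIMs. Sftpc and Sftpa1 were at 3 counts or fewer in BM IMs of both strains. Such cells lack CD45 and fall outside the gate of the sort, and their part in the changes was not tested.

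**Figure D5:**
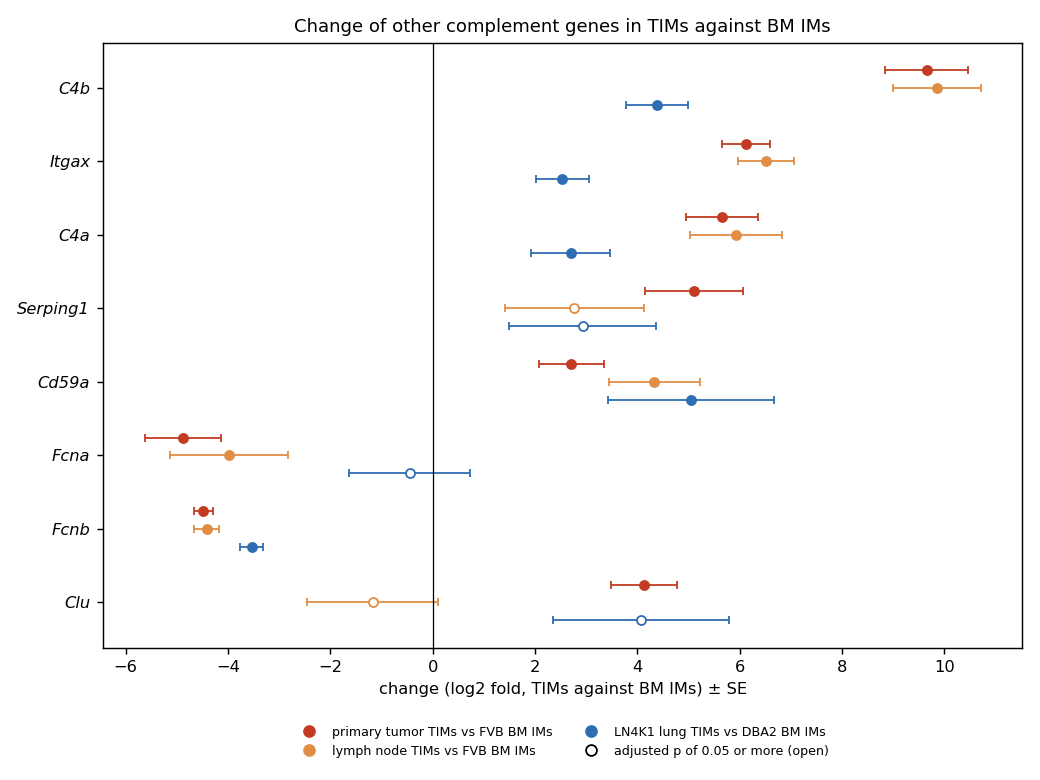
Change (log2 fold, TIMs against BM IMs, x axis) of 8 other complement genes (y axis) in the 3 comparisons; error bars are SE, filled points have an adjusted p under 0.05 and open points do not. C4b, Itgax and C4a lie to the right and Fcnb to the left in all 3, while Serping1 and Clu passed in primary tumor TIMs alone (Clu also in lung TIMs without lung replicate 3); C1s is left out because its BM IM libraries held too few counts for a fold.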

How the data were processed

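RNA was sequenced from 21 sorted IM samples. Per the labels and the study's methods, the authors trimmed reads with BBDuk, aligned them to mm10 (GRCm38) with BBMap and SAMtools 1.8, and counted reads on genes with featureCounts 1.5.2 of the Subread package, whose settings are not given in the sources used here; libraries were not strand-specific. The deposited values are the authors' raw counts for 23420 gene symbols.

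Samples were grouped by their labels. Differential expression was tested with edgeR 4.0.16 and limma 3.58.1 under R 4.3.3, each comparison on its own libraries, with TMM factors, the default filter (minimum count 10, minimum total 15), the robust quasi-likelihood test and Benjamini-Hochberg adjustment over all genes tested. The study itself used DESeq2 with shrunken fold changes, run here as an alternative (DESeq2 1.42.0). The standard error is the absolute log2 fold change divided by the square root of F, which is approximate. Log2 CPM used a prior count of 2. Gene lengths are merged exons of GENCODE vM21, matched by symbol. The script was tested on simulated counts. Python 3.11.15 served for the tables (pandas 2.3.3, numpy 2.4.6) and plots (matplotlib 3.10.9).

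The members, the other lists and the tests were chosen with earlier results of these data known. Named were the members, up to 10 other complement genes that passed in at least 1 comparison with BM IMs and had a group mean of at least 5 CPM, by largest change, and the 5 genes most correlated with each member above a mean log2 CPM of 3, of which the report gives the leading ones; 1 of the other complement genes is not reported here. No pair of libraries of a group agreed within sampling noise (lowest chi-square per degree of freedom 43.6), so all were counted. As alternatives, edgeR was run with the size factors of DESeq2, with a filter of 1 count in total or of 10 counts in every library, with all 5 groups in 1 fit, with a block for the replicate number and without each library in turn, and DESeq2 was run with and without shrinkage.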

Additional observations from a re-analysis of the deposited data

Results flagged for a closer look

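In 3 of 27 sets of 5 libraries from 1 group, a gene's highest or lowest library lay far from the others (a gap to its neighbour above 0.71 of the whole range), which chance gives in about 1 of 20 sets. C2 was lowest in primary tumor replicate 3, with a log2 CPM of -5.49 at 0 counts and a gap of 0.81 of the range. Cfp was lowest in LN4K1 lung replicate 3, at a log2 CPM of 7.75 (gap 0.75), the library that also stood apart over all genes. C5ar1 was highest in primary tumor replicate 3, at a log2 CPM of 9.99 (gap 0.76).

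The change from BM IMs to TIMs differed between LN2E1 primary tumors and LN4K1 lung metastases for 4 genes, by 2.55 on the log2 scale for Cfb, 1.66 for C3, 2.01 for C1qa and 2.37 for C3ar1, in edgeR's test of the difference itself at an adjusted p under 0.05. Strain, cell line, route and tissue cannot be told apart in this difference.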

How the results depend on the processing

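Under the alternatives, Cfb, C3ar1 and C5ar1 rose in all 3 comparisons with BM IMs in every fit, while DEG calls, the C1q chains, C2 and small differences depended on the setting. DESeq2, with or without shrinkage, gave 5 DEGs among the members in lung TIMs (2 in edgeR) and 2 genes changed between lymph node and primary tumor TIMs (1 in edgeR); shrunken values were not run for the difference between models. With all 5 groups in 1 fit, 0 genes changed between lymph node and primary tumor TIMs and 3 between strains (6 in the fit of the 2 groups). With 10 counts in every library, 12 other complement genes changed in lymph node TIMs (21 with the default filter), since fewer were tested, and C2 gave no value.

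Samples with the same replicate number did not deviate together (correlations between -0.1 and 0.057), and the fits above did not pair them. Such correlations cannot show whether same-numbered samples came from the same mouse, which the labels do not give. With the replicate number as a block, fits on 3 numbers gave 3 members changed in primary tumor TIMs (5 without the block), 0, 0 and 0 DEGs in place of 3, 3 and 2, and 13 other complement genes changed in lymph node TIMs, and values turned to -0.08 for C1qc in primary tumor TIMs, -0.90 for C2 in lymph node TIMs and -1.24 for C2 in the difference between models. That C2 difference was -0.05 both with the filter of 1 count and with all 5 groups fitted, and Cfp between lymph node and primary tumor TIMs was 0.00 with the filter of 1 count.

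Leaving out 1 library gave between 0 and 2 DEGs in lung TIMs (1, 0 and 0 when replicates 1, 2 and 3 of DBA2 BM IMs were omitted), between 0 and 2 genes changed between lymph node and primary tumor TIMs (0 without primary tumor replicate 4 or 5, 2 without lymph node replicate 3) and between 3 and 6 between strains. In these fits the sign turned for values that had not passed: C1qb (between -0.06 and 0.51) and C1qc (between -0.18 and 0.37) in primary tumor TIMs, C3 (between -0.14 and 0.40) and C1qc (between -0.14 and 0.30) in lymph node TIMs, and C1qa (between -0.53 and 0.07), C1qb (between -0.20 and 0.49), C1qc (between -0.34 and 0.25) and Cfp (between -0.09 and 0.10) between lymph node and primary tumor TIMs. The C2 difference between models ranged from -1.59 to 0.96. Of 504 such values, 435 kept direction and side of the threshold, 34 lost and 9 gained a call and 26 turned in sign. Where no cause is named, the cause was not tested. Depth limits C2, with at most 233 counts in a library, more than the other members.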
